A study of Mus musculus with 6 samples.

Results

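The comparison set growth plate RNA of mice labelled as knockouts of ATF6a (ATF6aKO, 2 arrays) against that of mice labelled as knockouts of ATF6b (ATF6bKO, 2 arrays). These are 4 of the 6 arrays of the series, chosen by genotype label. They are the only arrays of different genotypes that shared a slide, and the 2 wild-type arrays on another slide were not used. Per the labels, all mice were male C57BL/6J animals aged 4 weeks without treatment, and the tissue was the tibial growth plate cut out with a laser microdissector. The labels do not say how either gene was disrupted. Nor do they state that arrays sharing a genotype hold RNA of different animals. The p-values therefore measure only the spread between these arrays, which may be technical. Each genotype filled 1 row of the slide, so genotype and slide row cannot be told apart.

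ATF6a and ATF6b, encoded by Atf6 and Atf6b, are related transcription factors that sit in the ER (endoplasmic reticulum) membrane, where secreted proteins are folded. When unfolded proteins build up, the factors move to the Golgi apparatus, are cut by the site proteases Mbtps1 and Mbtps2, and their released part enters the nucleus. ATF6a is known as the strong activator of ER chaperone genes and ATF6b as a weaker relative. Growth plate chondrocytes secrete large amounts of collagen and proteoglycan, so the comparison bears on how the pair of factors differ in a secretory tissue, the setting that the series title names.

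Each value is a log2 intensity of the red channel after background correction and quantile normalisation, and a difference is the ATF6aKO mean minus the ATF6bKO mean (n = 2 arrays per genotype). Spots had a median intensity of 183 and 165 on the ATF6aKO arrays and of 162.5 and 146 on the ATF6bKO arrays, over a background of 37. Between 86.9% and 91.7% of spots lay well above background, with the lowest share on ATF6bKO replicate 2, and the number of arrays limits the precision. After naming probes through RefSeq accessions and leaving out dim ones, 18319 genes were tested. Of 13 genes that define growth plate chondrocytes, 12 lay well above background on all 4 arrays and Sox9 on 3. Among the 12 were Col2a1, Acan, Col10a1 and Ihh. With 86.9% to 91.7% of all spots well above background, this count does not test the tissue label.

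The targeted genes did not separate the genotypes. Atf6 measured 6.91 and 6.83 in ATF6aKO against 6.77 and 6.86 in ATF6bKO, a difference of 0.06 ± 0.17 (SE; limma adjusted p = 0.978). Atf6b measured 8.68 and 8.25 against 8.53 and 8.18, a difference of 0.11 ± 0.21 (SE; limma adjusted p = 0.965). The values overlapped for both genes. Because the deleted parts are not located by the labels, these probes check nothing about the genotypes.

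One array went against its label. On ATF6aKO replicate 1, labelled male like the others, 10 of the 18 Y-linked genes tested lay more than 2-fold below every other array. Ssty2, a multicopy gene of the Y chromosome, measured 6.25 on that array against 13.68 on ATF6aKO replicate 2 and 13.63 and 13.70 in ATF6bKO. Sly, a gene of the same kind, measured 7.81 against 11.73, 11.52 and 11.63, and Rbmy, which encodes an RNA-binding protein of male germ cells, 6.69 against 10.51, 10.46 and 10.57. Over the other 3 arrays these 10 genes varied by at most 0.4. Not every Y-linked gene followed: Eif2s3y measured 8.60, 8.12, 8.56 and 8.27 and Sry 10.33, 9.82, 10.10 and 10.33 in the same order of arrays. Ddx3y measured 5.82, 6.53, 6.46 and 6.49, near the low end of the genes tested. Whether the signals of these Y-linked probes are transcript levels in cartilage was not tested. The probe that stands for Xist, the RNA that silences 1 X chromosome in females, was highest on that array, at 10.57 against 8.89, 8.65 and 8.68.

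The rest of the X chromosome moved with the same array. Of 682 X-linked genes, 87.1% were higher on ATF6aKO replicate 1 than the mean of the other 3 arrays, with a median difference of 0.25, whereas of 17618 autosomal genes 52.4% were, with a median of 0.01. The 501 probes for intervals of the X chromosome gave a median of 0.22 and the 14479 for autosomal intervals -0.00. All values below are therefore given for the 4 arrays and, where a result rests on it, without ATF6aKO replicate 1. The lone ATF6aKO array is in that case taken to vary as the ATF6bKO arrays do.

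**Figure D1:**
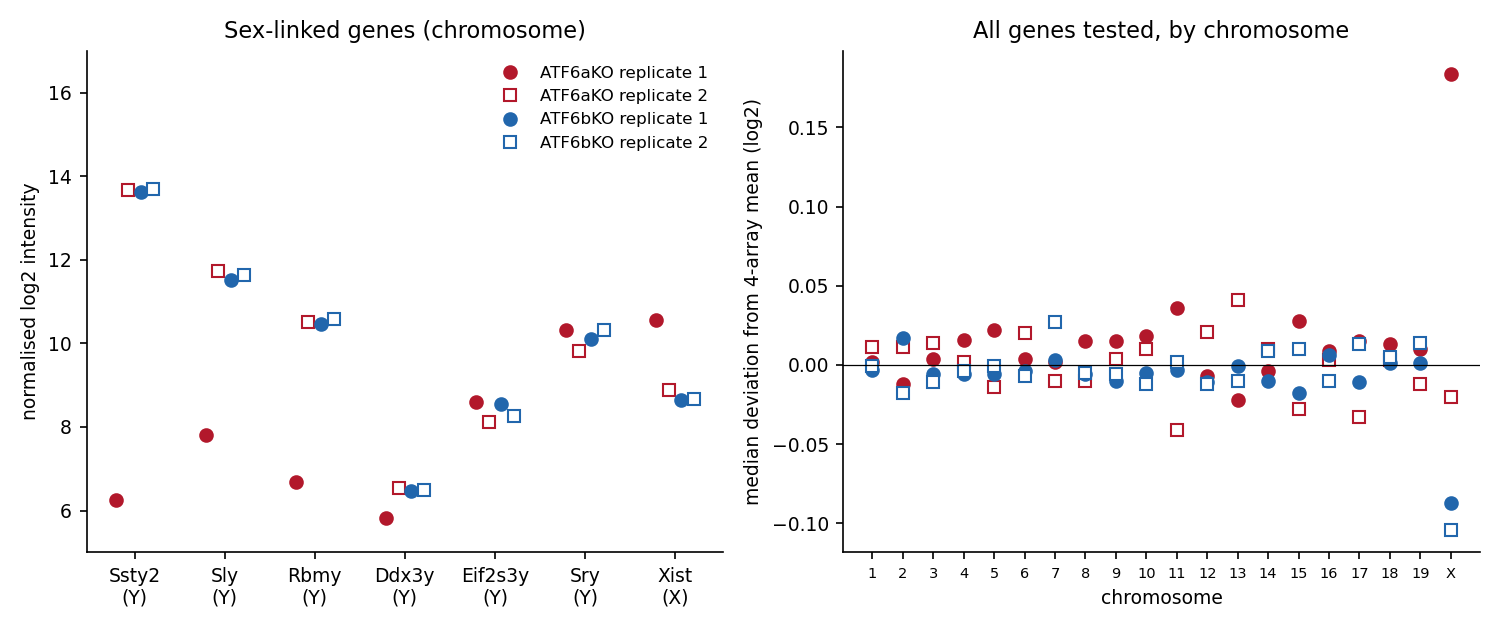
Left, normalised log2 intensity of 6 Y-linked genes and of Xist on each of the 4 arrays; right, the median deviation of all genes tested from their 4-array mean (log2), by chromosome. Filled red circles mark ATF6aKO replicate 1, which is far below the others for Ssty2, Sly and Rbmy, above them for Xist, and 0.18 above the 4-array mean over the X chromosome.

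Whether the genotypes differed by more than arrays of 1 genotype was answered first over all genes. The median absolute difference between genotype means was 0.14 log2 units, and the difference that the spread between same-genotype arrays alone would give was 0.13, a ratio of 1.08. Of the summed squared variation over genes, 46.7% lay between genotypes, 34.0% between the 2 ATF6aKO arrays and 19.3% between the 2 ATF6bKO arrays (47.7%, 31.8% and 20.5% without Y-linked genes). Without a genotype difference, the share between genotypes would be expected to equal the mean of the other 2 shares, and it exceeded both. For the typical gene, by contrast, the genotypes stood hardly farther apart than repeats did. The median 95% confidence interval of a gene's difference reached 0.40 log2 units to either side.

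The pairs of arrays did not sort by genotype. ATF6aKO replicate 1 and ATF6bKO replicate 1 had 61 genes more than 2-fold apart and correlated across genes at r = 0.984, the fewest genes apart of the 6 pairs. The 2 ATF6aKO arrays had 147 such genes (r = 0.9769) and the 2 ATF6bKO arrays 94 (r = 0.9869). ATF6aKO replicate 2 and ATF6bKO replicate 2 were farthest apart, with 638 genes (r = 0.9639), and the other mixed pairs had 345 and 317. By the counts of genes over 2-fold apart, the arrays thus stood in a row, from ATF6aKO replicate 2 through both replicates 1 to ATF6bKO replicate 2. The median absolute difference did not keep that row. For ATF6aKO replicate 2 it was 0.189 from ATF6bKO replicate 1 and 0.214 from ATF6aKO replicate 1. The correlations of these pairs were 0.9785 and 0.9769, or 0.9784 and 0.9796 without Y-linked genes. Without Y-linked genes the counts were 51 for the replicates 1, 136 within ATF6aKO and 94 within ATF6bKO.

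**Figure D2:**
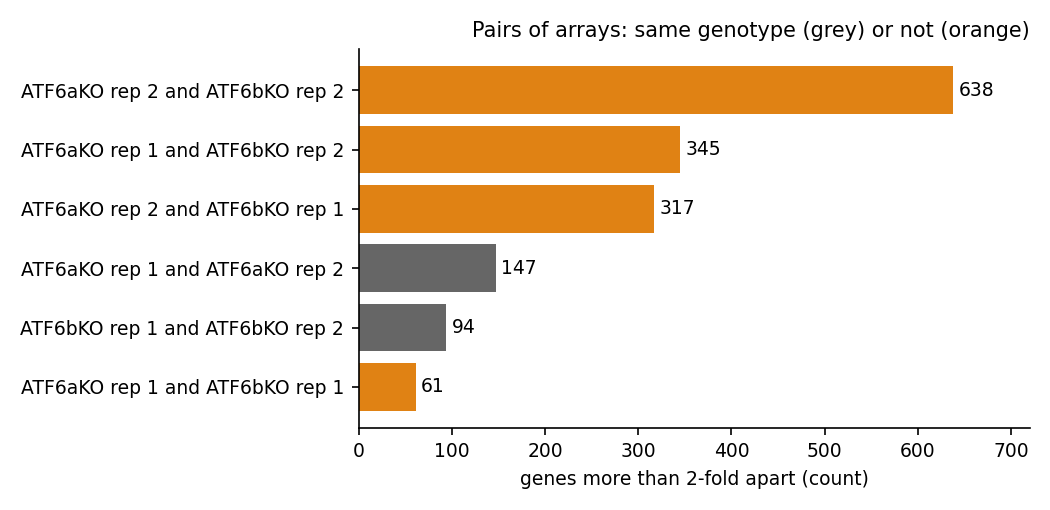
The number of genes more than 2-fold apart between each pair of arrays, on a linear axis; grey bars join arrays of 1 genotype and orange bars arrays of different genotypes. The mixed pair of replicates 1 has the shortest bar (61) and the mixed pair of replicates 2 the longest (638).

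No gene passed limma's test with Benjamini-Hochberg adjustment over the 18319 genes (0%), and the smallest adjusted p was 0.0512. At an unadjusted p under 0.05 there were 1589 genes, of which 1349 were higher in ATF6aKO (7.36% of those tested) and 240 lower (1.31%). Of the 682 X-linked genes 18% were higher and 0.147% lower at that threshold, against 6.96% and 1.34% of autosomal genes. The count of 0 stood next to the threshold: 24 genes had an adjusted p under 0.06, and with the Y-linked genes left out of the fit, an alternative chosen after seeing the data, 24 genes passed, 23 higher and 1 lower. It also depended on single arrays. Without ATF6aKO replicate 1, 388 genes passed (380 higher, 8 lower), without ATF6aKO replicate 2 11 (2 higher, 9 lower), without ATF6bKO replicate 1 197 (194 higher, 3 lower) and without ATF6bKO replicate 2 none, with a smallest adjusted p of 0.645 and with 546 genes higher and 73 lower at an unadjusted p under 0.05. Scaling by the 75th percentile gave 166 genes and median centring 206, nearly all higher.

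The lean was one-sided in size as well as in number. More than 2-fold higher in ATF6aKO were 259 genes (1.41%), and more than 2-fold lower 11 (0.06%), of which 8 were Y-linked and set by ATF6aKO replicate 1. The other 3 were St6galnac3, Arl4a and the predicted gene Gm3448. By contrast, the median difference over all genes was -0.00 and 49.8% of differences were positive, and the arrays did not overlap in 3778 genes higher in ATF6aKO (20.6%) and 3027 lower (16.5%). Among X-linked genes these shares were 41.5% and 3.67%, and among autosomal genes 19.8% and 17%. The genes over 2-fold higher numbered 461 without ATF6aKO replicate 1, 144 without ATF6aKO replicate 2, 441 without ATF6bKO replicate 1 and 118 without ATF6bKO replicate 2.

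The genes at the high end followed the same row of arrays. Of the 259 genes, 254 were lowest on ATF6bKO replicate 2 and 242 highest on ATF6aKO replicate 2. Their median difference between genotypes was 1.28, while the median of ATF6aKO replicate 1 minus replicate 2 was -0.64 and that of ATF6bKO replicate 1 minus replicate 2 was 0.68. By level, 156 of the 259 fell among the 4580 brightest genes and 4 among the 4580 dimmest. ATF6bKO replicate 2 was also the array with the lowest median intensity and the fewest spots well above background; the part of this in the result was not tested.

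**Figure D3:**
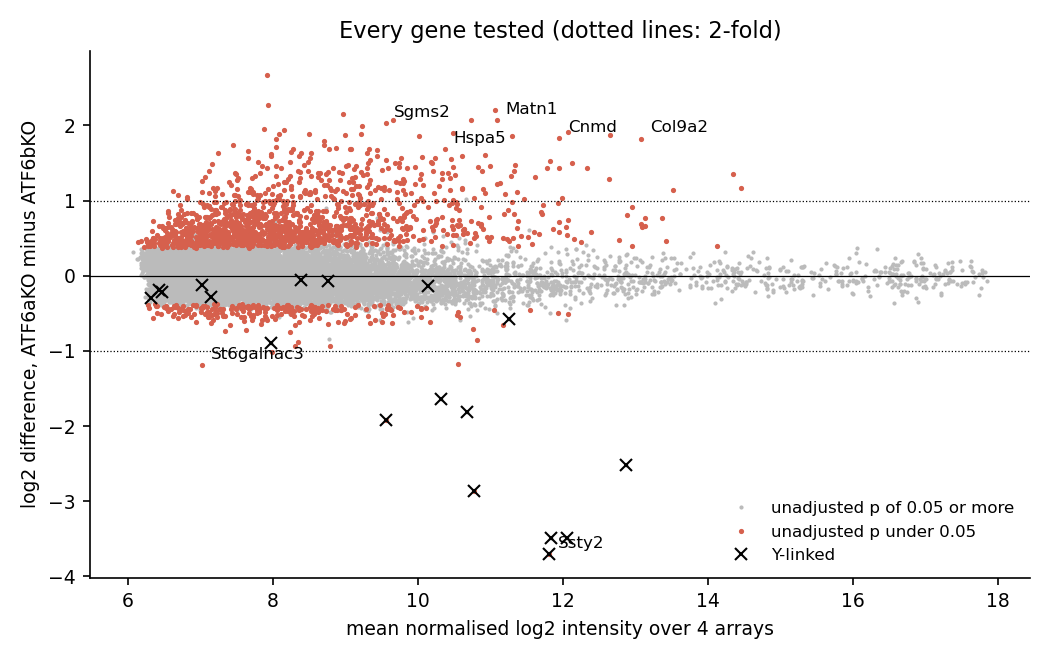
Log2 difference between ATF6aKO and ATF6bKO against the mean log2 intensity over 4 arrays, 1 point per gene tested; red points have an unadjusted limma p under 0.05, crosses are Y-linked genes and dotted lines mark 2-fold. Points above the upper line (259) far outnumber those below the lower line (11), and 8 of the latter are crosses.

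The 10 named genes of smallest p on the high side were 2.63-fold to 4.21-fold higher in ATF6aKO, each at the adjusted p of 0.0512. Matn1, which encodes the cartilage matrix linker matrilin-1, measured 11.99 and 12.27 in ATF6aKO against 10.45 and 9.66 in ATF6bKO, a difference of 2.07 ± 0.25 (SE), or 4.21-fold. Cnmd, the cartilage glycoprotein chondromodulin that keeps vessels out, measured 12.62 and 13.13 against 11.20 and 10.88, a difference of 1.83 ± 0.21 (SE). Both ATF6aKO arrays lay more than 1 log2 unit above both ATF6bKO arrays for both genes. Without ATF6aKO replicate 1 the differences were 2.21 and 2.09 and both passed (limma adjusted p = 0.0119 and 0.00527), and without ATF6bKO replicate 2 they were 1.68 and 1.67 and neither did (0.645 for both).

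The others of the 10 included further matrix genes. Col9a2, a chain of cartilage collagen IX, measured 13.89 and 14.11 against 12.61 and 11.74, a difference of 1.82 ± 0.26 (SE). Col1a2, a chain of the collagen of bone and skin, measured 10.82 and 11.22 against 9.63 and 9.28, a difference of 1.57 ± 0.20 (SE), whereas Col1a1, its partner chain, measured 7.02 and 6.68 against 6.58 and 6.24, a difference of 0.44 ± 0.20 (SE; limma adjusted p = 0.579). Vit, encoding the matrix protein vitrin, differed by 1.48 ± 0.21. For none of these did the genotypes overlap, which was a condition of the choice for all but Col1a1.

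The remaining 5 serve other functions. Rplp0, a protein of the large ribosomal subunit, measured 10.83 and 10.99 against 9.66 and 9.37, a difference of 1.39 ± 0.18 (SE), and its second probe gave 1.38. Sgms2, an enzyme that makes sphingomyelin, measured 10.22 and 10.92 against 8.94 and 8.15, a difference of 2.03 ± 0.28 (SE). Cd81, a membrane tetraspanin, measured 7.71 and 7.94 against 6.62 and 6.24, and Capn6, a calpain-like protein without protease activity, 9.05 and 9.45 against 7.97 and 7.48. Copz2, a subunit of the COPI vesicle coat, measured 11.24 and 11.64 against 9.92 and 9.16, but its second probe differed by -0.02.

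**Figure D4:**
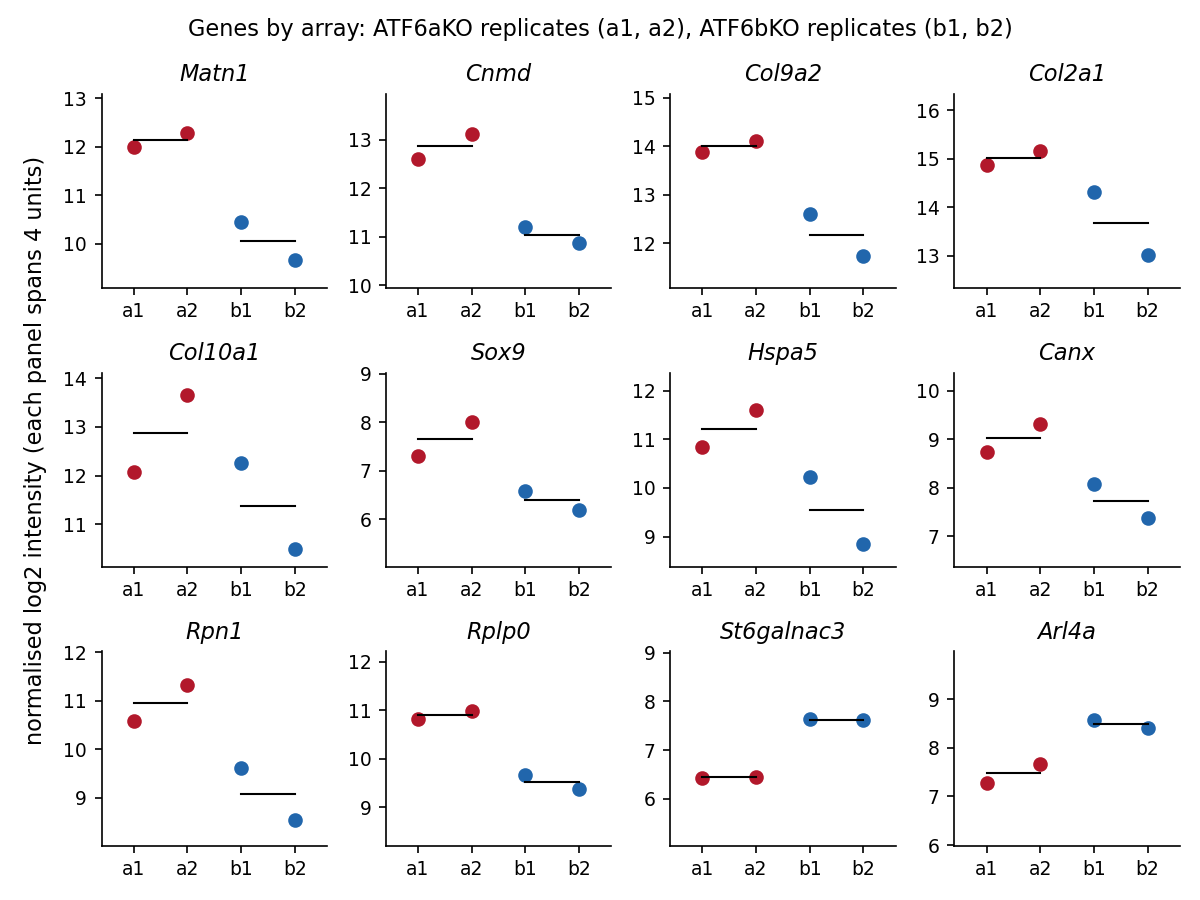
Normalised log2 intensity of 12 genes on the 4 arrays, with ATF6aKO replicates (a1, a2) in red, ATF6bKO replicates (b1, b2) in blue and black lines at the mean of each genotype; every panel spans 4 log2 units. In all 10 genes but Col10a1 that were higher in ATF6aKO both red points lie above both blue points, and b2 is the lowest point in each of the 10, while St6galnac3 and Arl4a lie lower in ATF6aKO.

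Cartilage matrix genes had the largest median difference of the lists. Of 24 cartilage proteoglycan and matrix protein genes, 15 were higher at an unadjusted p under 0.05 and 0 lower, 13 were over 2-fold higher, and the median difference was 1.14, against 7.36%, 1.41% and -0.00 over all genes. Comp, an oligomeric matrix protein, measured 13.36 and 13.82 against 12.29 and 11.14, a difference of 1.88 ± 0.32 (SE; limma adjusted p = 0.0742). Hapln1, which links aggrecan to hyaluronan, measured 10.13 and 11.26 against 9.29 and 7.96, a difference of 2.07 ± 0.42 (SE; limma adjusted p = 0.0902). Acan, the aggregating proteoglycan aggrecan, measured 13.38 and 13.19 against 12.79 and 11.21, so that most of its difference of 1.28 ± 0.39 (SE; limma adjusted p = 0.241) came from ATF6bKO replicate 2. Matn4, another matrilin, measured 11.26 and 10.57 against 11.03 and 11.04 and overlapped. The list's median was 1.38 without ATF6aKO replicate 1, 0.97 without ATF6aKO replicate 2, 1.84 without ATF6bKO replicate 1 and 0.58 without ATF6bKO replicate 2. It was not the largest without ATF6aKO replicate 2 (cartilage collagens 0.98) or without ATF6bKO replicate 2 (cytosolic ribosomal proteins 0.62).

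Cartilage collagens showed the same order. Over all genes, 7.36% were higher at an unadjusted p under 0.05 and 1.41% over 2-fold higher. Of 11 tested, 9 were higher at an unadjusted p under 0.05, 0 lower and 4 over 2-fold higher, and the median was 0.89 (0.76 with 6 genes without ATF6aKO replicate 1, 1.34 without ATF6bKO replicate 1, and 0.43 with 4 genes without ATF6bKO replicate 2). Col2a1, the main fibrillar collagen of cartilage, measured 14.88 and 15.17 against 14.31 and 13.03, a difference of 1.36 ± 0.33 (SE; limma adjusted p = 0.133). Col9a3, a partner of Col9a2 in collagen IX, measured 12.58 and 12.74 against 11.84 and 10.61, a difference of 1.44 ± 0.32 (SE; limma adjusted p = 0.104). In both genes ATF6bKO replicate 2 lay more than 1 log2 unit below replicate 1 of its own genotype.

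Genes that modify and fold collagen went along in part. Of 31 in the collagen modification list, 13 were higher at an unadjusted p under 0.05 and 0 lower, with a median of 0.34 (0.44 without ATF6aKO replicate 1, 0.18 without ATF6aKO replicate 2, 0.58 without ATF6bKO replicate 1, and 0.21 with 5 genes without ATF6bKO replicate 2). Crtap, a partner of the prolyl 3-hydroxylase, measured 9.76 and 10.04 against 9.08 and 8.52 (SE of the difference 0.22; limma adjusted p = 0.0872). Ppib, the prolyl isomerase of the same complex, measured 8.55 and 9.14 against 8.18 and 7.12. Vkorc1, an ER enzyme of the vitamin K cycle outside that list, measured 12.36 and 12.65 against 11.48 and 10.67, and its 2 probes gave differences of 1.43 and 1.36. In the synthesis and sulfation of chondroitin sulfate, 6 of 28 genes were higher at an unadjusted p under 0.05, against 7.36% of all genes, and 0 lower (3 without ATF6aKO replicate 2, 1 without ATF6bKO replicate 2), led by the sulfate donor synthase Papss2 at 10.19 and 10.93 against 9.75 and 8.23.

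The ER genes were examined because both targeted factors act on them. ATF6a activates chaperone genes through the ER stress response element (ERSE), a pair of short boxes near the start of the gene. The ERSE was searched as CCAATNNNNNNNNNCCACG and its compact form ERSE-II as ATTGG and CCACG parted by any 1 base, on both strands of the 250 bases before the first listed start of 27025 genes; both end in CCACG, and each was counted on its own. ERSE was found in 33 promoters (0.122%) and ERSE-II in 9 (0.0333%), while 9 of the 17 promoters listed for the ATF6 targets tested (52.9%) held ERSE and 1 ERSE-II. Of the cartilage collagen, cartilage matrix and translocon lists, no promoter in the table held either motif. The last 200 bases before the start are shown for 5 targets described below, from RefSeq (GRCm38.p6), 5′ to 3′ along the gene, with the motif in capitals (Hspa5 at chr2:34771890-34772089 on the plus strand, Calr at chr8:84846932-84847131, minus, Canx at chr11:50325674-50325873, minus, Pdia6 at chr12:17266389-17266588, plus, and Herpud1 at chr8:94386229-94386428, plus).
Hspa5: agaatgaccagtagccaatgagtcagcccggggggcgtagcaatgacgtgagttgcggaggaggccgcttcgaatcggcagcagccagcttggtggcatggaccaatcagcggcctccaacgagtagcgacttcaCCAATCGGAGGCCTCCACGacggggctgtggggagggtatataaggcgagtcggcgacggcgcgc
Calr: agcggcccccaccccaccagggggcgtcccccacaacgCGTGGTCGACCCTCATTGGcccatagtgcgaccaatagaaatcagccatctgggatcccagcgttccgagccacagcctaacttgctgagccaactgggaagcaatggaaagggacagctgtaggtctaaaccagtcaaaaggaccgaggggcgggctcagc
Canx: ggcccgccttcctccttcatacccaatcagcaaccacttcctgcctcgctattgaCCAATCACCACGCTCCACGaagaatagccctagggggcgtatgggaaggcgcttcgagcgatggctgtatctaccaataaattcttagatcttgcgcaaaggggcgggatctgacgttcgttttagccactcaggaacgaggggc
Pdia6: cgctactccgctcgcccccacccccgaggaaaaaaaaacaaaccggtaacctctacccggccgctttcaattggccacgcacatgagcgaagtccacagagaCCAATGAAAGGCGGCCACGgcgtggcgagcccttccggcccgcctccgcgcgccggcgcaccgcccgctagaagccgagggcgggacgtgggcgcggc
Herpud1: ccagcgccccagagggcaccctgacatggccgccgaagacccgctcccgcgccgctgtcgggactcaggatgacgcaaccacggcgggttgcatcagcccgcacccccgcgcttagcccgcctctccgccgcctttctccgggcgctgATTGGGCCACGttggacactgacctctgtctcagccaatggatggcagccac
The first 4 hold an ERSE, on the opposite strand in Calr, and Herpud1 an ERSE-II. The capitals end 46 bases before the start in Hspa5 and 143 bases before it in Calr. A match of letters is a description and not a measured site.

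ATF6 target genes were higher in ATF6aKO than in ATF6bKO more often than not. Of 19 tested, 10 were higher at an unadjusted p under 0.05, against 7.36% of all genes, and 0 lower. The arrays did not overlap in 13 on the high side and 0 on the low side, against 20.6% and 16.5% of all genes, and the median difference was 0.43. Hspa5, the ER chaperone BiP, measured 10.83 and 11.61 in ATF6aKO against 10.23 and 8.85 in ATF6bKO, a difference of 1.68 ± 0.39 (SE; limma adjusted p = 0.11). Canx, the membrane lectin chaperone calnexin, measured 8.74 and 9.31 against 8.08 and 7.38, a difference of 1.29 ± 0.26 (SE; limma adjusted p = 0.0872). Both genotypes stayed apart in these genes, with ATF6bKO replicate 2 lowest.

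Among other targets the differences ranged down to about 0. Calr, the soluble lectin chaperone calreticulin, measured 8.72 and 8.35 against 7.78 and 7.12, a difference of 1.09 ± 0.23 (SE; limma adjusted p = 0.102). Pdia6, a disulfide isomerase, measured 8.91 and 9.65 against 8.59 and 7.35, but its second probe differed by -0.14. Herpud1, which helps degrade ER proteins, measured 7.64 and 8.30 against 7.01 and 6.94. Hsp90b1, the ER chaperone GRP94 whose promoter holds 2 ERSE matches, differed by 0.43 ± 0.33 (SE; limma adjusted p = 0.854), and ATF6aKO replicate 1 lay below ATF6bKO replicate 1. Sdf2l1, an ER stress-inducible protein, measured 9.92 and 9.66 against 9.93 and 9.71, a difference of -0.03 ± 0.18 (SE; limma adjusted p = 0.99). Of the 9 tested ERSE holders on the list, 5 were higher at an unadjusted p under 0.05, and these were also the only such genes among all 20 tested holders.

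For the targets shown by sequence, differences were no smaller without the array that went against its label, Calr aside. Without ATF6aKO replicate 1 the list's median was 0.68 with 10 genes at an unadjusted p under 0.05, Hspa5 differed by 2.07, Canx by 1.58 and Calr by 0.90. The median was 0.66 without ATF6bKO replicate 1. Without ATF6bKO replicate 2 it was 0.33 with 7 genes, Hspa5 differed by 0.99 and Canx by 0.94.

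Of 15 tested ER sensors and relatives of ATF6, 4 were higher at an unadjusted p under 0.05, against 7.36% of all genes, and 0 lower, with a median of 0.18. Creb3, a membrane-bound transcription factor of the same family type, measured 7.47 and 7.67 against 6.88 and 6.38, and Creb3l2, its relative in secretory cells, 7.47 and 7.50 against 6.80 and 6.79. Xbp1, the factor spliced by the sensor IRE1 and itself a target of ATF6a, measured 8.47 and 9.07 against 8.03 and 7.03, a difference of 1.24 ± 0.30 (SE; limma adjusted p = 0.133). Ern1, which encodes IRE1, measured 7.39 and 6.90 against 7.07 and 7.28, and overlapped. In the PERK and ATF4 branch, the other arm of the response, 5 of 24 genes were higher at an unadjusted p under 0.05, 0 lower and the median was 0.06 (3 genes and 0.04 without ATF6bKO replicate 2, 3 genes and 0.12 without ATF6aKO replicate 2). Atf4 itself, the branch's transcription factor, measured 10.85 and 11.17 against 10.37 and 9.90, and its target Atf5 9.60 and 10.17 against 9.10 and 8.31.

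Genes of the wider secretory machinery also leaned high. Of 53 translocon, glycosylation and vesicle coat genes, 35 were higher at an unadjusted p under 0.05 and 0 lower, against 7.36% and 1.31% of all genes. Over 2-fold higher were 17 of the 53, against 1.41% of all genes. The list's median was 0.65 (0.93 without ATF6aKO replicate 1, and 0.54 without ATF6bKO replicate 2). Rpn1, a subunit of the enzyme that attaches N-glycans, measured 10.57 and 11.31 against 9.62 and 8.54, a difference of 1.86 ± 0.33 (SE; limma adjusted p = 0.0799). Sar1a, the GTPase that starts COPII vesicles, measured 8.72 and 9.08 against 7.97 and 7.74, a difference of 1.05 ± 0.19 (SE; limma adjusted p = 0.0827). Rabac1, a Golgi protein that binds RAB GTPases, measured 7.90 and 8.14 against 6.97 and 6.66, with its second probe at 0.61. Of 30 ER chaperones and folding enzymes, 16 were higher at an unadjusted p under 0.05 and 0 lower (median 0.49, and 9 genes without ATF6bKO replicate 2), among them Fkbp11, a prolyl isomerase of secretory cells, at 9.50 and 9.97 against 8.71 and 8.16. ER-associated degradation, which returns misfolded proteins to the cytosol, had 5 of 19 and a median of 0.29, and without ATF6bKO replicate 2 it had 1 and a median of 0.14.

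Genes outside the ER that every cell uses leaned the same way. The shares over all genes were 7.36% higher and 1.31% lower at an unadjusted p under 0.05, and 1.41% over 2-fold higher. Of 35 cytosolic ribosomal protein genes, 25 were higher at an unadjusted p under 0.05, 0 lower and 10 over 2-fold higher, with a median of 0.74 (0.90 without ATF6aKO replicate 1, 0.62 without ATF6bKO replicate 2). Rps14, of the small subunit, measured 11.12 and 11.69 against 10.16 and 9.46, a difference of 1.60 ± 0.26 (SE; limma adjusted p = 0.066). Of 34 oxidative phosphorylation genes, 16 were higher (median 0.39), led by the cytochrome oxidase subunit Cox6a1 at 9.06 and 9.62 against 8.06 and 7.36, and of 31 proteasome genes 14 (median 0.35), led by Psmc5 at 10.10 and 10.65 against 9.36 and 8.93. In neither list was any gene lower at that threshold. The oxidative phosphorylation median was 0.59 without ATF6aKO replicate 1, and 0.24 with 10 genes without ATF6aKO replicate 2, and 10 genes were also left without ATF6bKO replicate 2. The proteasome median was 0.53 without ATF6aKO replicate 1, and 0.21 with 9 genes without ATF6aKO replicate 2. Over all 4 arrays, the medians of the ATF6 target, ER chaperone and translocon lists, at 0.43, 0.49 and 0.65, lay between those of the proteasome and ribosomal lists, and whether the ER lists differed from these was not tested. In bulk tissue, fewer chondrocytes and less RNA per chondrocyte cannot be told apart.

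**Figure D5:**
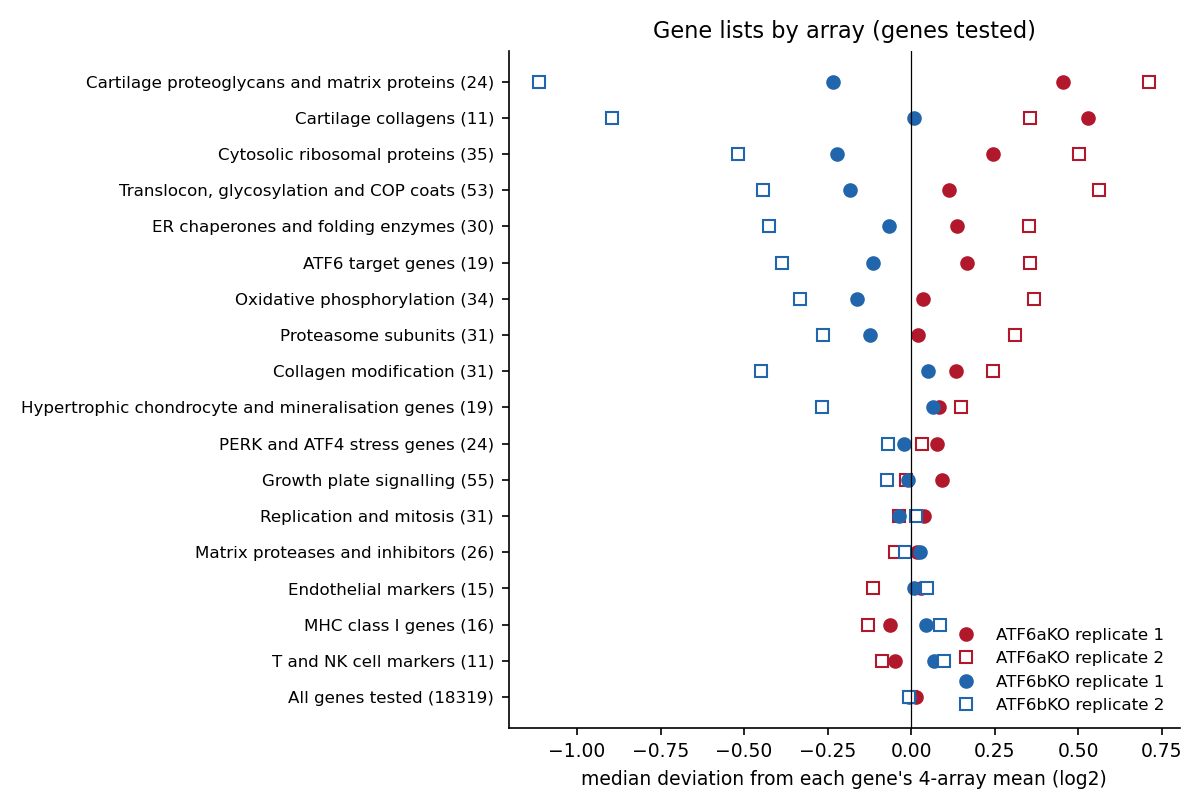
For 17 gene lists and all genes tested, the median deviation of the list's genes from their own 4-array mean (log2), 1 marker per array, with the number of genes tested in brackets. In the upper 8 lists ATF6bKO replicate 2 lies lowest and an ATF6aKO array highest, while the 4 markers for all genes almost coincide at 0.

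Of 17 transcription factors of chondrocytes, 4 were higher at an unadjusted p under 0.05 and 1 lower, against 7.36% and 1.31% of all genes. The median was 0.15. Without either ATF6bKO array 2 were higher. Sox9, the factor that drives cartilage genes, measured 7.30 and 8.02 against 6.59 and 6.20, a difference of 1.27 ± 0.24 (SE; limma adjusted p = 0.0857), and it was not well above background on ATF6bKO replicate 2. Trps1, a repressor that binds GATA sites, measured 8.96 and 9.47 against 8.54 and 8.62. Barx1, a homeobox factor on the resting zone list, measured 6.69 and 6.39 against 6.84 and 7.15, the lower of the cartilage regulators at that threshold. Sox9 without ATF6aKO replicate 1 differed by 1.62 and passed (limma adjusted p = 0.0119), and without ATF6bKO replicate 2 it differed by 1.07 and did not.

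Signals that set the pace of the growth plate were mostly close to 0. Over all genes, 7.36% were higher and 1.31% lower at an unadjusted p under 0.05. Of 55 signalling genes, 8 were higher at an unadjusted p under 0.05, 2 lower and 0 over 2-fold apart, with a median of 0.06; 4 were higher without ATF6aKO replicate 2 and none without ATF6bKO replicate 2. Pth1r, the receptor for parathyroid hormone-related protein, measured 9.75 and 9.47 against 9.13 and 8.20, a difference of 0.95 ± 0.27 (SE; limma adjusted p = 0.205). Igf2r, which clears insulin-like growth factor II, measured 8.64 and 8.91 against 8.26 and 8.02. Ihh, the hedgehog ligand of prehypertrophic cells, measured 9.01 and 9.16 against 8.82 and 8.04, a difference of 0.65 ± 0.24 (SE; limma adjusted p = 0.389).

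Hypertrophic and mineralisation genes, active in the last stage before bone, were higher in 5 of 19 cases at an unadjusted p under 0.05 and lower in 0, with a median of 0.32 (0.27 without ATF6aKO replicate 1, and 0.06 with 2 genes higher without ATF6bKO replicate 2). Col10a1, the collagen of hypertrophic cells, measured 12.08 and 13.67 against 12.26 and 10.48, so that ATF6aKO replicate 1 lay below ATF6bKO replicate 1 and the genotypes overlapped. Smpd3, a sphingomyelinase needed for mineralisation, measured 9.29 and 9.91 against 8.41 and 7.20, a difference of 1.80 ± 0.34 (SE; limma adjusted p = 0.0827). Panx3, a channel protein of late chondrocytes, measured 9.76 and 10.71 against 9.21 and 8.08. The share of all genes higher at that threshold was 7.36%. Of 13 imprinted growth genes 5 were higher, led by Gnas, the stimulatory G protein subunit, at 9.33 and 10.12 against 8.37 and 7.67 but with a second probe at -0.34, and by Cdkn1c, a cell cycle inhibitor, with a mean of 11.78 ± 0.88 against 9.71 ± 0.99 (SD, n = 2). The imprinted list had a median of 0.40 over all 4 arrays, 0.62 without ATF6bKO replicate 1, 0.27 with 3 genes without ATF6aKO replicate 2, and 0.21 with 2 genes without ATF6bKO replicate 2.

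Cell division, matrix breakdown and cell death genes did not lean. The shares over all genes were 7.36% higher and 1.31% lower at an unadjusted p under 0.05. Of 31 replication and mitosis genes, 2 were higher at an unadjusted p under 0.05 and 0 lower (median 0.00), the highest being Ccnd1, the G1 cyclin, at 8.88 and 8.77 against 8.17 and 8.35. Of 26 matrix proteases and inhibitors, 1 was higher and 1 lower (median 0.02), namely Timp2, an inhibitor, and Mmp12, a macrophage protease at 9.73 and 9.93 against 10.26 and 10.25. Of 23 apoptosis and survival genes 1 was higher and 0 lower. Among 30 genes of hypoxia and glycolysis 9 were higher and 0 lower (median 0.21), led by the glycolytic enzyme Pgam1 at 10.78 and 11.61 against 10.44 and 9.62. Only 2 of them were higher without ATF6aKO replicate 2, and without ATF6bKO replicate 2 only 1 was, with a median of 0.09.

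On the low side, differences were small except in a few genes. St6galnac3, a sialyltransferase, measured 6.42 and 6.45 in ATF6aKO against 7.63 and 7.61 in ATF6bKO, a difference of -1.19 ± 0.17 (SE; limma adjusted p = 0.0512). The repeats of each genotype nearly coincided, and the difference ranged from -1.20 to -1.17 when any 1 array was left out, although without ATF6bKO replicate 2 the limma adjusted p was 0.765. Arl4a, a small GTPase, measured 7.28 and 7.67 against 8.58 and 8.41, a difference of -1.02 ± 0.19 (SE; limma adjusted p = 0.0827), but its second probe gave 0.16. Ermard, a protein of the ER membrane, measured 7.99 and 7.71 against 8.58 and 8.98, a difference of -0.93 ± 0.20 (SE; limma adjusted p = 0.0973), with a second probe at -0.44.

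The other 7 of the 10 named genes on the low side differed by -0.89 to -0.60 log2 units at an adjusted p of 0.116 or more. They were Pglyrp1, an antibacterial protein of granulocytes, the vomeronasal receptor gene Vmn1r235, Rabgef1, an activator of endosomal RAB5, H2-Q2, Adgrf5, an adhesion receptor, Nfkbib, an inhibitor of NF-kB, and Ankzf1, a factor of ribosome quality control. Of all 10, 4 (Ermard, Vmn1r235, H2-Q2 and Adgrf5) lie on chromosome 17, which carries Atf6b, as does Gm3448. On that chromosome 26 of 923 genes (2.82%) were lower at an unadjusted p under 0.05, against 1.34% of autosomal genes. Chromosome 11 came next among the autosomes, with 2.38%. On chromosome 17, 65 genes (7.04%) were higher, against 6.96% of autosomal genes. The lower share without ATF6aKO replicate 1 was 7.15% against 4.82%, and without ATF6bKO replicate 2 1.52% against 0.41%.

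Class I histocompatibility genes, most of which lie on the same chromosome, held more genes lower at an unadjusted p under 0.05 than any other list. Of 16 tested, 4 were lower, against 1.31% of all genes, and 0 higher (3 lower without either ATF6aKO array, 2 without either ATF6bKO array), with 7 not overlapping on the low side against 16.5% of all genes, and a median of -0.10. H2-Q2 measured 8.50 and 8.38 against 9.06 and 9.11, a difference of -0.65 ± 0.17 (SE; limma adjusted p = 0.158), with a second probe at -0.47. H2-Q6 measured 9.33 and 9.06 against 9.89 and 9.73. These genes are near copies of each other, so a probe may read more than 1 of them. Among the 20 tested neighbours on each side of Atf6b, 4 of 40 were higher and 1 lower, and among those of Atf6 5 and 0, with medians of 0.00 and 0.01. Over all genes, 7.36% were higher and 1.31% lower at that threshold.

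Markers of other cell types had small median differences over the 4 arrays, but several marker lists leaned low. Over the 13 marker lists the medians ranged from -0.24 (megakaryocytes, 6 tested) to 0.06 (osteoblasts and osteocytes, 10 tested). At most 2 genes of any list were higher at an unadjusted p under 0.05. Lower were 10 of 11 T and NK cell, 10 of 12 macrophage, 5 of 6 megakaryocyte, 11 of 15 endothelial and 10 of 15 neutrophil markers. So were 12 of 17 muscle, 8 of 12 adipocyte, 5 of 13 B cell and 5 of 10 erythroid markers, and 9195 of all 18319 genes. Not overlapping on the low side were 5 T and NK cell, 6 neutrophil, 3 endothelial, 1 macrophage and 1 megakaryocyte marker, against 16.5% of all genes. Without ATF6aKO replicate 2 the median was 0.05 for endothelial, 0.12 for macrophage and -0.04 for megakaryocyte markers. It was then 0.06 for muscle, 0.03 for adipocyte, -0.06 for neutrophil and -0.12 for T and NK cell markers. Without ATF6aKO replicate 1 the medians ranged from -0.42 (megakaryocytes, 3 of 6 lower at that threshold) to 0.11 (nerve and Schwann cells). The over 2-fold members were Col1a2 on the osteoblast list, Fmod, a small proteoglycan on the tendon list, at 11.03 and 10.85 against 10.31 and 8.56, and S100b, a calcium-binding protein of glia and chondrocytes, at 10.03 and 10.61 against 9.29 and 8.84. The summed level of the 17 muscle markers tested ranged from 12.05 to 12.48, of the 15 endothelial from 11.45 to 11.69 and of the 10 erythroid from 14.52 to 14.77. Lower at that threshold were Cd79b of B cells, at 8.92 and 8.42 against 9.33 and 9.25, and the globin Hba-a2, at 8.87 and 8.31 against 9.45 and 8.97. The part of other cells in the differences was not tested.

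By detection, 263 genes lay well above background on both ATF6aKO arrays and on neither ATF6bKO array, and 22 the other way round. For the fold of such a gene, signals under the lowest one well above background on their array were raised to it. Spread between arrays does not enter these folds, so they are estimates and not limits. Such genes also passed the filter only through the genotype where they were high. The folds were small. Igfbp7, which binds insulin-like growth factors, was 2.13-fold higher in ATF6aKO (mean 7.19 against 6.07, limma adjusted p = 0.166). Tcp1, of the cytosolic chaperonin, was 2-fold and Chic2, a membrane-associated protein, 1.84-fold higher. On the other side Map3k7cl, the taste receptor gene Tas2r110 and Tmem170b were 1.42-fold, 1.33-fold and 1.29-fold higher in ATF6bKO. For Chic2, Map3k7cl and Tmem170b the fold is the plain difference between means. Without ATF6aKO replicate 1 the counts were 500 and 101, without ATF6aKO replicate 2 422 and 95, without ATF6bKO replicate 1 836 and 52 and without ATF6bKO replicate 2 364 and 121, and with the scanner's laxer call of a positive spot 93 and 14.

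Second probes gave a check within the arrays. A second probe was kept for 4499 genes, and across these genes the differences of the pair correlated at r = 0.482. Of the 365 with an unadjusted p under 0.05 on the high side, the second probe pointed the same way in 293 and also passed in 145, while on the low side it did so in 45 and 9 of 64. Over all 4499 genes it pointed the same way in 2603 and also passed in 350. Vmn2r112, a vomeronasal receptor gene, measured 9.05 and 9.62 against 10.11 and 9.83 and had both probes past that threshold on the low side. So did Ermard, H2-Q2 and the predicted gene Gm3448 (second probe -1.03). Both probes share the arrays, so agreement between them does not bear on the spread between samples.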

How the data were processed

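Red-channel (Cy5) intensities of 4 Agilent mouse arrays were used as deposited; the submitters' processing notes name Agilent Feature Extraction, version 10.7.1.1, for the scanner files. From the median signal and median background, intensities were corrected with normexp (offset 50), quantile normalised and put on the log2 scale. Control and outlier-flagged spots were left out. Probes were named through RefSeq accessions, each gene took its brightest probe, and a probe was kept where 1 genotype or the other had it well above background on each of its arrays. Genotypes were compared with limma 3.58.1 (R 4.3.3), two-sided, Benjamini-Hochberg over all genes, threshold 0.05, checked on simulated data. An exact permutation test of 2 against 2 arrays cannot go below 0.333. The authors' deposited table of log2 values follows the green channel and served only as an alternative, where scale, centring and direction are not stated.

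The members and gene lists were chosen with earlier results of these data known. Predicted genes passed over, named were Atf6 and Atf6b; 10 genes of smallest p each way without overlap; 2 per list of smallest p and, in marker lists, the brightest; 3 bounds each way; and 3 genes each way with both probes past the threshold. The Y-linked genes, Xist, Gm3448, and Comp, Hapln1, Acan, Matn4, Col2a1, Col1a1, Col10a1, Ihh, Hspa5, Pdia6, Herpud1, Hsp90b1, Sdf2l1, Xbp1, Ern1 and other genes outside that rule were chosen after their values were seen. Normalisation, offset, filter, probe choice, variance model, replicate block and left-out arrays were varied.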

Additional observations from a re-analysis of the deposited data

Results flagged for a closer look

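The labels name no sample in the green channel, which was not used for the comparisons, yet part of its spots gave a signal. Well above background there were 11.4% and 9.59% of spots on ATF6aKO replicates 1 and 2, and 12.5% and 8.45% on ATF6bKO replicates 1 and 2. Of the 308 negative control spots, between 0.325% and 0.974% were. What this signal holds was not tested.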

How the results depend on the processing

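The count of 0 genes at an adjusted p under 0.05 was also 0 with the scanner's processed signal, a filter on all 4 arrays and no filter. The authors' deposited table gave 0 too but, following the green channel, is no check on the red one. The count was 0 as well with the mean over probes, all probes and all 6 arrays. It was 166 with 75th percentile scaling, 206 with median centring, 18 with a normexp offset of 16, 22 without background subtraction and 106 with a trended, robust variance, and ranged from 0 to 388 when 1 array was left out. After seeing the data, Y-linked genes were left out, which gave 24. With the replicate block it was 0 (smallest adjusted p 0.0686); the same-numbered arrays deviated in opposite directions (r = -0.16). Crossed replicate numbers, also chosen after seeing the data, gave 796 calls. The genes detected in 1 genotype numbered 93 and 14 with the positive-spot call, and 364 to 836 and 52 to 121 with 1 array left out. The cause was not tested.

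The ratio of genotype to array difference lay between 1.01 and 1.09 over the settings of signal, scaling, filter, probe choice and sample set. It was 1.13 in the authors' deposited table, which follows the green channel. It was not computed with an array left out, the replicate block, crossed numbers or the other variance model. Differences between arrays in the deposited table correlated with those of the red channel at r = -0.03 to 0.10, so their signs are no check on it. In the authors' deposited table, which follows the other channel, differences of opposite sign were -0.80 for Creb3, -0.77 for Col9a3, -0.64 for Col10a1, -0.55 for Igfbp7, -0.50 for Col1a2 and Ppib, -0.47 for Atf5, -0.45 for Crtap, -0.40 for Sar1a, -0.37 for Gnas, -0.35 for Sox9 and Rabac1. They were -0.30 for Calr and Pgam1, -0.25 for Xbp1, Rpn1 and Timp2, -0.21 for Rps14, -0.20 for Copz2, Pdia6, Psmc5 and Tcp1, -0.16 for Ccnd1, -0.15 for Capn6, Canx and Herpud1, -0.13 for Trps1, -0.11 for Hspa5, -0.10 for Xist, Cox6a1 and Chic2, -0.05 for S100b. They were -0.03 for Ihh, 0.03 for Rbmy and Vmn2r112, 0.05 for Arl4a, 0.15 for Ssty2, 0.20 for Gm3448, 0.25 for Pglyrp1 and Adgrf5, 0.85 for Mmp12. With 1 array left out the Ssty2 difference ranged from -7.41 (without ATF6aKO replicate 2) to 0.01 (without ATF6aKO replicate 1). Depth is not known for arrays; the dimmest array, ATF6bKO replicate 2, limits low genes most.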
